A study of Mus musculus with 3 samples.

Results

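The genes of the small leucine-rich proteoglycans were followed through the stromal cells of day 5 implants in mice. The 9 genes *Dcn*, *Bgn*, *Aspn*, *Lum*, *Fmod*, *Prelp*, *Omd*, *Kera* and *Ogn* were taken by symbol from the 31053 genes of the count files. Female CD-1 mice of 6 to 8 weeks carried subdermal implants of Matrigel, a basement membrane gel. Matrigel-only mice carried the gel alone and were given nothing by mouth. Vehicle mice carried gel with rhBMP2, a recombinant bone morphogenetic protein used to induce ectopic bone, and received corn oil with DMSO. Palo mice carried the same gel with rhBMP2 and received the retinoid agonist palovarotene at 4 mg/kg. Vehicle and Matrigel-only therefore differed both in rhBMP2 and in the gavage, and these cannot be told apart. Dissociated cells of each group gave 1 droplet library, so a difference between groups could not be set against replicates. Without a test, a gene was called between groups when its level differed at least 2-fold and averaged at least 5 CPM over the pair. The level is given in CPM, the unique molecular identifiers (UMIs) of the gene summed over the cells, scaled to a total of 1000000 UMIs. Intervals are exact 95% Poisson or binomial intervals and cover counting error only.

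Small leucine-rich proteoglycans are secreted proteins whose core is a curved array of leucine-rich repeats, most of them carrying dermatan, chondroitin or keratan sulfate chains. They bind fibrillar collagen and set the width and spacing of fibrils in tendon, skin, cornea, cartilage and bone, and several of them also bind growth factors of the TGF-β and BMP families. Decorin (*Dcn*), biglycan (*Bgn*) and asporin (*Aspn*) form class I. Lumican (*Lum*), fibromodulin (*Fmod*), prolargin (*Prelp*), osteomodulin (*Omd*) and keratocan (*Kera*) form class II, and osteoglycin (*Ogn*) belongs to class III.

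Cells with 200 to 6000 genes and at most 5% mitochondrial UMIs were kept. They were taken as stromal when *Col1a1*, *Col1a2* and *Col3a1* held at least 1% of their UMIs. The limit ran through few Matrigel-only and Palo cells, with 50 and 10 at 0.5% to 1% collagen UMIs and 48 and 10 at 1% to 2%. It ran through more Vehicle cells, with 54 and 138. The rule left 2080 Matrigel-only, 1365 Vehicle and 1183 Palo stromal cells, of 8728, 5478 and 7297 passing cells. Stromal cells had a median of 6.49%, 4.77% and 7.93% collagen UMIs. Their median depth was 9085, 17082 and 12956 UMIs. Of 8 general stromal markers, such as *Pdgfra*, *Prrx1* and *Thy1*, all had UMIs in each library. Of these, 3 were called lower in Vehicle than in Matrigel-only, with *Thy1* at 682, 128 and 595 CPM and *Pdgfra* at 246, 89.6 and 205 CPM in Matrigel-only, Vehicle and Palo, and *Twist2* the third. For Palo over Vehicle, 4 of the 8 were called higher. Pairs of libraries shared 8 to 17 barcodes among passing cells, and 1 of these was stromal in both. Markers of other cells moved with the groups. The 10 chondrocyte markers summed to 4985 CPM in Vehicle stromal cells against 74.6 in Matrigel-only and 122 in Palo, with *Col2a1* at 0 and *Acan* at 0.821 CPM in Palo. The 5 fibroblast progenitor markers, among them *Pi16*, *Dpp4* and *Cd34*, summed to 5126, 1198 and 2740 CPM in Matrigel-only, Vehicle and Palo. The 5 osteoblast markers summed to 33.7, 1040 and 51.6 CPM, with *Ibsp* (bone sialoprotein) at 0, 764 and 0 CPM. Of the 4 mural markers, which summed to 181, 838 and 321 CPM, *Acta2* (smooth muscle actin) made up nearly all, at 177, 831 and 316 CPM. The 8 leukocyte markers summed to 1336, 466 and 1233 CPM, the 4 tendon markers to 115, 54.9 and 120 CPM and the 4 endothelial markers to 18.7, 3.58 and 12.4 CPM. Of the tendon markers, *Thbs4* stood at 108, 9.86 and 113 CPM, while *Scx* went the other way, at 4.05, 40.1 and 3.16 CPM. *Kdr* made up most of the endothelial sum, at 17.8, 2.56 and 11.6 CPM. Schwann, adipocyte, skeletal muscle and keratinocyte markers summed to at most 4.20 CPM in each library. In the group comparisons a change in the make-up of the stromal cells and a change within cells cannot be told apart from the summed level, so levels by class of cell follow below the summed ones.

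Most of these genes lie in clusters of the mouse genome (mm10, GENCODE vM21), so that neighbours can be compared. On chromosome 10, *Dcn* (chr10:97479609-97518143), *Lum* (chr10:97565128-97572703) and *Kera* (chr10:97606879-97613692) followed each other on the plus strand, 47.0 and 34.2 kb apart. On chromosome 13, *Aspn* (chr13:49544443-49567565), *Omd* (chr13:49582462-49592822) and *Ogn* (chr13:49608046-49624501) lay 14.9 and 15.2 kb apart on the plus strand, within the span of *Cenpp* on the minus strand. On chromosome 1, *Fmod* (chr1:134037254-134048277, plus strand) and *Prelp* (chr1:133910304-133921414, minus strand) lay 116 kb apart and pointed away from each other. No other protein-coding gene lay in these gaps apart from *Cenpp*. *Bgn* (chrX:73483602-73495933) stood alone on the X chromosome.

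*Fmod* and *Prelp* are neighbours, and *Aspn* and *Ogn* lie in the same cluster with *Omd* between them. In each pair the levels went opposite ways between Matrigel-only and Vehicle, although *Aspn*, 1.45-fold higher, did not reach 2-fold. The 250 bases upstream of the RefSeq starts of these pairs (GRCm38.p6, written on the strand of the gene) are shown for that reason. Of the 9 genes, 7 had such an entry. Capitals mark exact matches to TATAAA (the core of a TATA box), ACAAAG or ACAATG (forms bound by SOX proteins), AGGTCA (a nuclear receptor half-site), GGCGCC (a GC-rich form bound by SMAD proteins) and CAGAC (a SMAD box), on either strand.
Fmod, chr1:134037004-134037253, plus strand: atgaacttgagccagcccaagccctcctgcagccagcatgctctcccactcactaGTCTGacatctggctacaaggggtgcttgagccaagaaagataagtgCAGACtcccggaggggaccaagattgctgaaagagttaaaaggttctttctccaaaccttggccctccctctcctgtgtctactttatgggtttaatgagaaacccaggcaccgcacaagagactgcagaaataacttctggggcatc
Prelp, chr1:133921402-133921651, minus strand: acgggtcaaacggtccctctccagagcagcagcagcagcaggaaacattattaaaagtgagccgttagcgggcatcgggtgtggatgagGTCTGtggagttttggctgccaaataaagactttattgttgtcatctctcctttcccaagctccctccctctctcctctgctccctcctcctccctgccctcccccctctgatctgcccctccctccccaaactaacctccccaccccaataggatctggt
Aspn, chr13:49544193-49544442, plus strand: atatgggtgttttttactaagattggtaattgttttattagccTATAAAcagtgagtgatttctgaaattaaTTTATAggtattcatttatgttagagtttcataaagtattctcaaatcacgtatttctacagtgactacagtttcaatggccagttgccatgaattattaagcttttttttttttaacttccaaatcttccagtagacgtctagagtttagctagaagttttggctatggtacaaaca
Ogn, chr13:49607765-49608014, plus strand: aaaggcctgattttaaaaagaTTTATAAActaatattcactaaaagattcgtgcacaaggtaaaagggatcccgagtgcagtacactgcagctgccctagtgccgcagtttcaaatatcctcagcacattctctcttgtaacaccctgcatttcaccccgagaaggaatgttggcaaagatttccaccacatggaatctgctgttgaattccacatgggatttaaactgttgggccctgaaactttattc
Positions are counted back from the start, with -1 as the last base printed. *Fmod* held CAGAC at -148 and its reverse complement at -195, and *Prelp* held that reverse complement at -161. *Aspn* held TATAAA at -207 and, on the other strand, at -178. In *Ogn* the 2 matches to TATAAA, at -229 and -227 on opposite strands, overlapped. Of the 3 other promoters searched, *Omd* held AGGTCA at -80, *Kera* held ACAAAG at -137 and *Bgn* held none of the 6 motifs. Over 32851 mouse promoters of the same length, 42.2% held CAGAC, 12.4% TATAAA, 14.0% AGGTCA, 16.5% ACAAAG, 10.7% ACAATG and 9.59% GGCGCC. A match is a string of letters and was not tested as a binding site.

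Together the 9 genes took about the same share of the stromal transcriptome in each library, with 1.04%, 0.937% and 1.02% of UMIs in Matrigel-only, Vehicle and Palo. What differed was which of them made up that share. *Dcn* held 37.6%, 18.9% and 29.7% of the family's UMIs in Matrigel-only, Vehicle and Palo. *Fmod* held 0.436%, 17.1% and 0.826%, and *Ogn* held 9.84%, 2.36% and 5.45%. *Bgn* was the leading gene in Vehicle and Palo, with 37.3% and 43.2%, and stood second to *Dcn* in Matrigel-only with 31.3%.

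**Figure D1:**
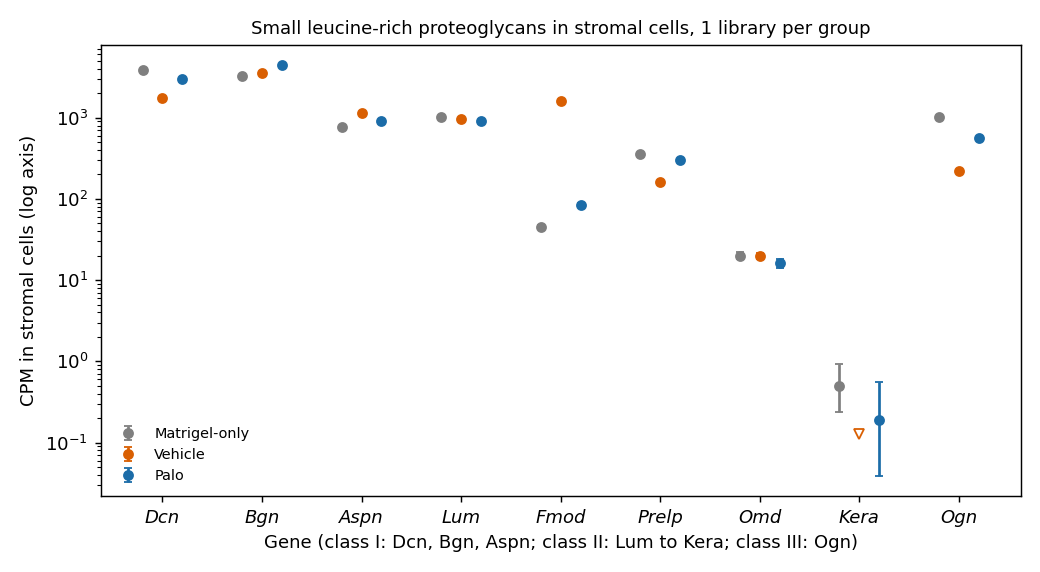
Level of each gene in stromal cells of the Matrigel-only, Vehicle and Palo libraries, in CPM on a log axis. Bars are exact 95% Poisson intervals, often smaller than the point, and the open triangle marks the limit that 0 *Kera* UMIs allow in Vehicle. *Fmod* spanned 45.3 to 1603 CPM, while *Lum* and *Omd* kept close levels when summed over all stromal cells.

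Among the class I genes, *Dcn*, which binds collagen I and TGF-β, stood at 3905 CPM (3877 to 3932) in Matrigel-only, 1769 (1752 to 1786) in Vehicle and 3021 (2994 to 3049) in Palo. Vehicle was the low library and Palo lay between the others. *Bgn*, its close relative on the X chromosome, stood at 3247, 3497 and 4395 CPM, and Palo was the highest. *Aspn*, which carries a run of aspartates in place of chains, stood at 777, 1130 and 899 CPM, with Vehicle the highest. The typical cell followed *Dcn*, whose median over single cells was 4104, 1420 and 2705 CPM. For *Bgn* the median cell lay at 1834, 3311 and 3514 CPM and the 10th percentile at 309, 1811 and 827 CPM, so low cells were rarest in Vehicle.

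Among the class II genes, *Fmod*, which binds collagen I and is rich in tendon and cartilage, stood at 45.3 CPM (42.4 to 48.3) in Matrigel-only, 1603 (1587 to 1620) in Vehicle and 84.1 (79.6 to 88.7) in Palo. After each cell was thinned to 3000 UMIs, 5.88% of Matrigel-only, 83.2% of Vehicle and 14.1% of Palo stromal cells had a *Fmod* UMI, against 9.62%, 87.2% and 23.7% before thinning. *Prelp*, a basement membrane anchor found in cartilage, went the other way, at 357, 162 and 305 CPM. *Lum*, which spaces collagen fibrils in cornea and skin, stood at 1015, 971 and 900 CPM. *Omd*, a keratan sulfate proteoglycan of mineralised tissue, was low at 19.9, 19.97 and 16.2 CPM, and the Matrigel-only and Vehicle intervals (18.0 to 21.9 and 18.2 to 21.9) overlapped. *Kera*, a corneal proteoglycan, was almost absent, with 10 UMIs in Matrigel-only, 3 in Palo and none in the 1365 Vehicle cells. By the limit of 3 counts that a count of 0 allows, up to 0.220% of Vehicle cells could hold a *Kera* UMI, which does not bound the share of cells expressing it. *Ogn*, the class III gene, known from bone and fibroblasts, stood at 1022 CPM (1008 to 1036), 221 (215 to 227) and 554 (543 to 566), with Vehicle the lowest and Palo between.

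Within a library the order of levels changed with the group. It ran *Dcn*, *Bgn*, *Ogn*, *Lum*, *Aspn*, *Prelp*, *Fmod*, *Omd* and *Kera* in Matrigel-only, where *Ogn* and *Lum* overlapped in their intervals. In Vehicle it ran *Bgn*, *Dcn*, *Fmod*, *Aspn*, *Lum*, *Ogn*, *Prelp*, *Omd* and *Kera*. In Palo it ran *Bgn*, *Dcn*, *Lum*, *Aspn*, *Ogn*, *Prelp*, *Fmod*, *Omd* and *Kera*, where *Lum* and *Aspn* overlapped. A UMI marks 1 molecule whatever its length, so levels were compared between genes without a correction for length. In cells that should lack these genes, those outside the stroma with leukocyte genes at 2% of UMIs or more, the 8 genes other than *Kera* stood at 0.175% to 1.80% of the stromal level. Of those cells, 7.70%, 6.96% and 5.57% had a *Dcn* UMI and 0.160%, 5.22% and 0.0703% a *Fmod* UMI, at median depths of 3058, 3655 and 4207 UMIs.

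Vehicle against Matrigel-only asked how rhBMP2 implants differed from the gel alone. *Fmod* was 35.4-fold higher, a log2 ratio of 5.15 (5.05 to 5.24). It was the 1 gene called higher of the 8 that passed the 5 CPM limit, where 4.89% of all 10351 genes tested were. *Ogn* was 4.63-fold lower, and *Dcn* and *Prelp* were each 2.21-fold lower, so that 3 of 8 were called lower, where 9.72% of all genes were. When the 3 classes of cells without *Acan*, described below, were given the same weight in each library, *Dcn* (log2 ratio -0.57) and *Prelp* (-0.45) were no longer called, *Ogn* stood at -1.12 against -2.21, and *Fmod* at 4.01 against 5.15. Within single classes, *Dcn* was still called lower in *Sox9*-positive (-1.11) and remaining cells (-1.65), and so was *Prelp* (-1.13 and -1.37). In *Pi16*-positive cells neither was called, at 0.03 for *Dcn* and 0.49 for *Prelp*. *Aspn* was 1.45-fold higher, *Bgn* 1.08-fold higher and *Lum* 1.05-fold lower, which did not reach the limit. With the classes given the same weight, *Lum* stood at -0.61. Within single classes, *Lum* was called lower in the remaining cells (-1.83), and stood at -0.98 in *Sox9*-positive and 0.09 in *Pi16*-positive cells. The median log2 ratio of the 8 genes was -0.03, beside -0.04 over all genes tested. Of the markers of other cells, 9 of 10 for chondrocytes, 4 of 5 for osteoblasts, the mural *Acta2* and the tendon marker *Scx* were called higher. Called lower were 7 of 8 for leukocytes, 5 of 5 for fibroblast progenitors, the tendon marker *Thbs4* and the endothelial marker *Kdr*. The part of these markers in the ratios was not tested. When the 178, 49 and 77 stromal cells with at least 0.5% leukocyte UMIs were left out, the ratios were 5.06 for *Fmod*, -2.22 for *Ogn*, -1.17 for *Dcn* and -1.18 for *Prelp*.

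**Figure D2:**
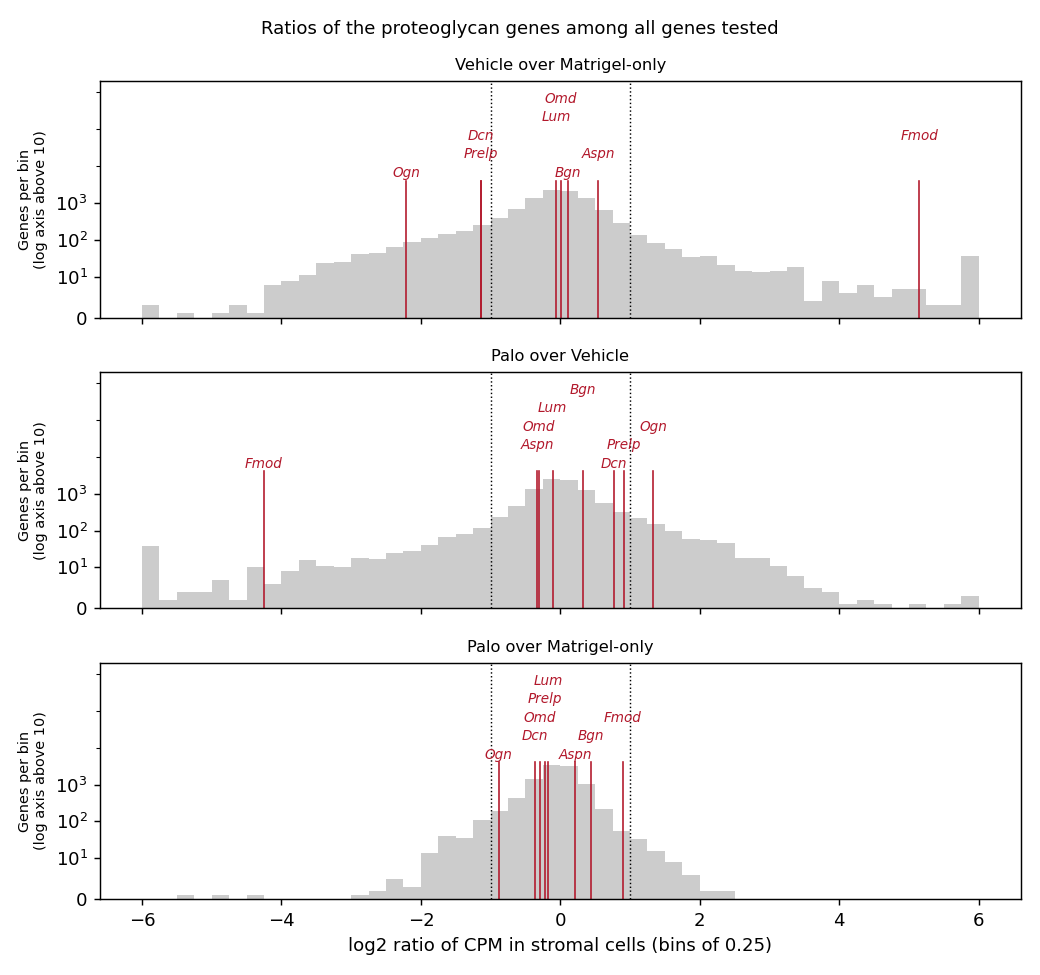
Distribution of log2 CPM ratios of all genes tested (grey bars, bins of 0.25, values past 6 in the end bins) with the 8 proteoglycan genes tested as red lines, for the 3 group comparisons. Dotted lines mark 2-fold. *Fmod* lay at 5.15 for Vehicle over Matrigel-only and at -4.25 for Palo over Vehicle, while all 8 genes lay inside 2-fold for Palo over Matrigel-only.

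Palo against Vehicle asked what palovarotene changed in implants with rhBMP2. *Fmod* was 19.1-fold lower (log2 ratio -4.25, interval -4.33 to -4.17), the 1 gene called lower of 8, where 5.04% of all 10233 genes tested were. *Ogn* was 2.51-fold higher (1.33, 1.28 to 1.38), the 1 gene called higher, where 6.81% of all genes were. With the classes given the same weight, *Ogn* stood at 0.60 and none of the 8 was called higher, where 2.54% of all genes were. Within single classes, *Lum* (1.72), *Dcn* (1.31) and *Prelp* (1.15) were called higher in the remaining cells. In *Sox9*-positive cells these genes stood at 0.74, 0.85 and 0.69, and in *Pi16*-positive cells at 0.03, -0.05 and -0.45, none of them called. *Omd* was called lower in *Sox9*-positive cells (-1.12), from 64 UMIs in Palo and 162 in Vehicle. The share of all genes called within a class was not computed. *Prelp* was 1.89-fold and *Dcn* 1.71-fold higher, short of the limit, and *Aspn* was 1.26-fold lower. For Palo over Matrigel-only, none of the 8 genes was called higher, where 0.665% of all 10228 genes were, and none lower, where 2.09% were. The widest of these summed ratios were a 1.86-fold higher *Fmod* and a 1.84-fold lower *Ogn*, followed by a 1.35-fold higher *Bgn* and a 1.29-fold lower *Dcn*. Within the *Pi16*-positive class *Fmod* was called higher (log2 ratio 2.43, 2.04 to 2.82), from 179 UMIs in Palo and 84 in Matrigel-only. It was not called in *Sox9*-positive (0.29) or remaining cells (0.50). The 3 comparisons share libraries and are not independent of each other. The median log2 ratio of the 8 genes was 0.11 for Palo over Vehicle and -0.20 for Palo over Matrigel-only, beside 0.01 and -0.03 over all genes.

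Neighbouring genes could differ in direction and in size. On chromosome 1, *Fmod* was 35.4-fold higher in Vehicle than in Matrigel-only and *Prelp* 2.21-fold lower. On chromosome 13 the log2 ratio was 0.54 for *Aspn*, 0.01 (-0.19 to 0.20) for *Omd* and -2.21 for *Ogn*. It was -0.33 for *Ecm2*, on the other side of *Aspn*, so there was no single direction along the cluster. On chromosome 10 both tested genes were lower, *Dcn* at -1.14 and *Lum* at -0.06. The flanking relatives *Optc* (chromosome 1) and *Epyc* (chromosome 10) were too low to be tested, and *Ecm2*, next to *Aspn*, stood at 32.9, 26.1 and 40.6 CPM. *Aspn*, *Omd* and *Ogn* lie within the span of *Cenpp* on the other strand, and whether counting kept the strands apart is not given in the sources used here.

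**Figure D3:**
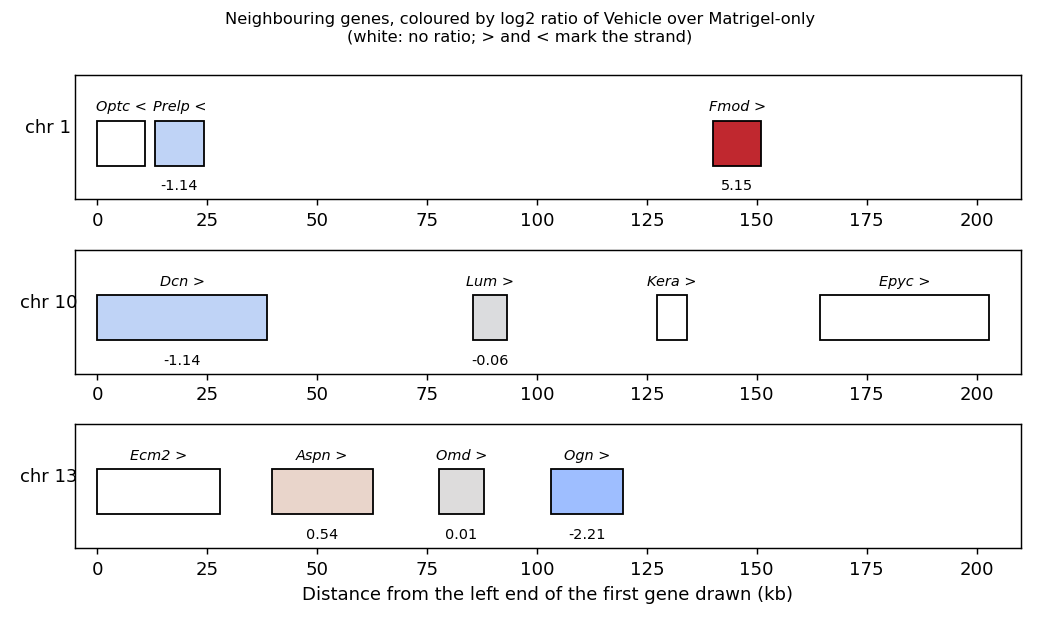
Proteoglycan genes on chromosomes 1, 10 and 13, drawn to scale in kb from the left end of the first gene shown, with colour and number giving the log2 CPM ratio of Vehicle over Matrigel-only (red higher, blue lower, white no ratio given). *Fmod* at 5.15 and *Prelp* at -1.14 share a locus, as do *Aspn* at 0.54 and *Ogn* at -2.21.

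The stromal cells were then split by the genes they showed. A cell with at least 1 *Acan* UMI (aggrecan, a cartilage proteoglycan) was called *Acan*-positive. Of the others, one with *Sox9* (the transcription factor of the cartilage lineage) was called *Sox9*-positive, and of the rest, one with *Pi16* (a marker of fibroblast progenitors) was called *Pi16*-positive. In Matrigel-only the classes held 1 *Acan*-positive, 492 *Sox9*-positive and 1011 *Pi16*-positive cells, with 576 in none of them. In Vehicle they held 772, 391, 80 and 122, and in Palo 4, 405, 312 and 462. Detection of a gene depends on depth, and median UMIs ran from 8139 in Matrigel-only *Pi16*-positive to 18052 in Vehicle *Sox9*-positive cells. Of the 772 Vehicle cells, 83 had a single *Acan* UMI. Classes of fewer than 50 cells are not described.

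The *Pi16*-positive class, which leaves out cells with *Acan* or *Sox9*, kept a high and steady *Dcn* in all groups. Its *Dcn* level was 5033, 5144 and 4970 CPM in Matrigel-only, Vehicle and Palo, a span smaller than the difference between any of these and the other classes. With every *Pi16*-detected cell included, also those with *Acan* or *Sox9*, *Dcn* stood at 4884, 4277 and 4702 CPM, with Vehicle the lowest. *Sox9*-positive cells stood at 3077, 1424 and 2566 CPM and the remaining cells at 3143, 1003 and 2482, and *Acan*-positive Vehicle cells stood at 1799. Vehicle was thus the low library outside the *Pi16*-positive class. *Lum* followed the same layout, with 1168, 1240 and 1268 CPM in *Pi16*-positive cells against 933, 473 and 789 in *Sox9*-positive and 885, 249 and 822 in the remaining cells. *Acan*-positive Vehicle cells reached 1293 CPM of *Lum*, level with the *Pi16*-positive cells.

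*Fmod* was higher in Vehicle in every class that could be compared. In *Sox9*-positive cells it stood at 78.1, 1224 and 95.5 CPM in Matrigel-only, Vehicle and Palo, a 15.7-fold difference between the first 2. In the remaining cells it stood at 62.4, 1042 and 88.2 CPM, and *Acan*-positive Vehicle cells reached 1963 CPM. In *Pi16*-positive cells it was low in absolute terms, 10.1, 169 and 54.5 CPM in Matrigel-only, Vehicle and Palo, from 84, 162 and 179 UMIs. Only 12.5% of the 80 Vehicle *Pi16*-positive cells had a *Fmod* UMI, against 2.87% and 8.33% in the other libraries. The log2 ratio of Vehicle over Matrigel-only was 3.97 (3.83 to 4.11) in *Sox9*-positive and 4.06 (3.90 to 4.23) in the remaining cells. It was 4.06 (3.67 to 4.46) in *Pi16*-positive cells, where it rested on the 12.5% of Vehicle cells with a *Fmod* UMI. Summed within these classes, *Fmod* was 15.7- to 16.7-fold higher, against 35.4-fold in the summed cells.

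*Ogn* was highest in the *Pi16*-positive class of each library, and was lower in Vehicle and Palo within that class too. It stood at 1601, 839 and 1186 CPM in Matrigel-only, Vehicle and Palo. In *Sox9*-positive cells it stood at 618, 261 and 386 CPM, in the remaining cells at 611, 201 and 395, and in *Acan*-positive Vehicle cells at 159. Vehicle was the lowest and Palo in between in each of the 3 classes present in all libraries.

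*Bgn* ran against *Dcn* across the classes. It was lowest in *Pi16*-positive cells, at 1854, 2798 and 2685 CPM, and highest in *Sox9*-positive cells, at 4959, 3969 and 5404 CPM. *Acan*-positive Vehicle cells stood at 3261 CPM. *Aspn* was highest in Vehicle *Sox9*-positive cells, at 1431 CPM, against 835 in Matrigel-only and 904 in Palo. *Prelp* stood at 339, 476 and 349 CPM in *Pi16*-positive cells, where Vehicle was the highest library, and at 371, 169 and 273 in *Sox9*-positive cells, where it was the lowest. *Omd* was highest in the *Pi16*-positive class of each library, at 27.5, 31.3 and 38.7 CPM, although the intervals in Vehicle (21.1 to 44.7 against 19.3 to 26.5 in *Sox9*-positive cells) overlapped.

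**Figure D4:**
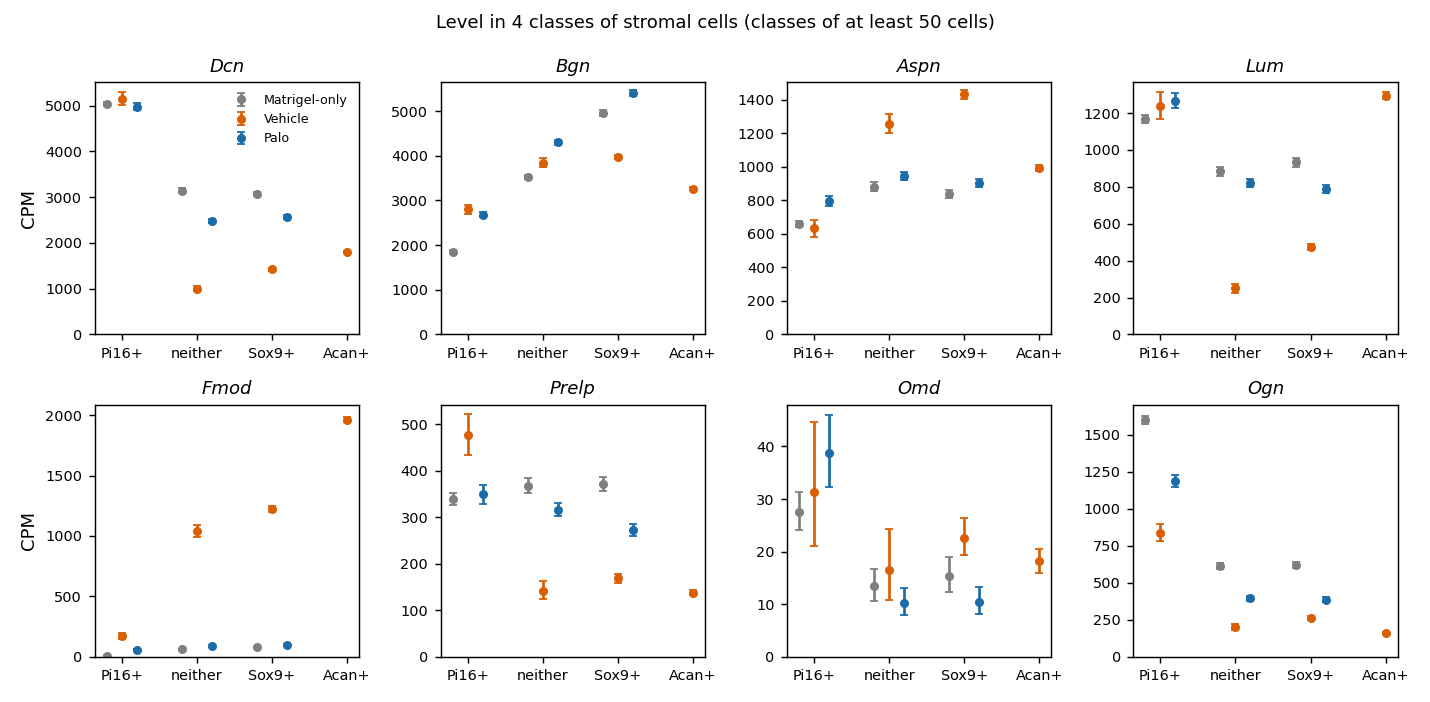
Level in CPM (linear axis from 0) of the 8 genes other than *Kera* in *Pi16*-positive, *Sox9*-positive, *Acan*-positive and remaining stromal cells ("neither"), coloured by library, with exact 95% Poisson intervals. *Dcn* in *Pi16*-positive cells without *Acan* or *Sox9* lay between 4970 and 5144 CPM in all libraries. *Fmod* reached 1224 to 1963 CPM in Vehicle *Sox9*-positive and *Acan*-positive cells.

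The cells were also split by 1 gene at a time, with every stromal cell placed on one side. *Pi16*-positive cells here include those with *Acan* or *Sox9*, 167 cells in Vehicle against 80 in the class above. In these 167 cells *Fmod* stood at 542 CPM, against 169 in the class. Of the 8 genes tested, 1 was called in *Pi16*-positive over *Pi16*-negative cells of all 3 libraries. *Ogn* was 2.75-fold higher in Matrigel-only, 3.80-fold in Vehicle and 2.82-fold in Palo, where 1.98% of all 9681 genes were called higher in all libraries. *Omd* was 2.11-, 1.56- and 3.74-fold higher and *Dcn* 1.65-, 2.90- and 1.94-fold higher, each short of 2-fold in at least 1 library. None was called lower, where 0.733% of all genes were. *Fmod* came closest, at 4.19-, 3.19- and 1.70-fold lower, and it passed 2-fold in each library when cells were thinned to 3000 UMIs, with log2 ratios of -2.65, -3.19 and -2.69. With *Pi16* at 2 UMIs or more, its log2 ratio was -4.58 in Vehicle against -1.67 at 1 UMI, and -3.36 against -2.07 in Matrigel-only. *Prelp* was 3.34-fold higher in *Pi16*-positive cells of Vehicle alone, against 1.04-fold lower in Matrigel-only and 1.13-fold higher in Palo. Median depths were 8414.5 and 10173 UMIs in *Pi16*-positive and *Pi16*-negative Matrigel-only cells, 14549 and 17323.5 in Vehicle, and 11021.5 and 13884 in Palo.

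The *Sox9* split called none of the 8 genes higher in all 3 libraries, where 0.0518% of all 9646 genes were, and none lower, where 0.477% were. *Ogn* was 1.92-, 2.02- and 1.73-fold lower in *Sox9*-positive cells of Matrigel-only, Vehicle and Palo. *Fmod* was 2.44-, 1.89- and 1.24-fold higher, and *Bgn* 1.94-, 1.01- and 1.44-fold higher. *Lum* was 1.59-fold higher in Vehicle but 1.13- and 1.24-fold lower in Matrigel-only and Palo. *Sox9*-positive cells were the deeper ones, with 10603, 17559 and 14240 median UMIs against 8603, 13552.5 and 12115. When cells were thinned to 3000 UMIs, *Fmod* in Matrigel-only (log2 ratio 0.74 against 1.29) and *Ogn* in Vehicle (-0.74 against -1.01) no longer passed 2-fold. *Bgn* in Matrigel-only (1.06 against 0.96) and *Omd* in Palo (-3.02 against -0.94) then passed it. The *Omd* value rests on few UMIs. Before thinning, *Sox9*-positive Palo cells held 64 *Omd* UMIs and *Sox9*-negative cells 192, and no interval was computed for the thinned value.

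In Vehicle, the library with enough *Acan*-positive cells, *Lum* was 2.52-fold higher in *Acan*-positive than in *Acan*-negative cells, 1293 against 512.5 CPM. It was the 1 gene of 8 called higher, where 2.53% of all 10114 genes were. *Fmod* was 1.80-fold higher, at 1963 against 1090 CPM. None was called lower, where 4.00% of all genes were, and *Ogn* was 1.94-fold lower, at 159 against 308 CPM. *Ogn* passed 2-fold when cells were thinned, with a log2 ratio of -1.17. *Dcn* differed by 1.04-fold and *Bgn* by 1.18-fold.

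The Vehicle cells outside the *Pi16*-positive class were also laid out in 5 steps, a choice made after the values were seen. The steps were 122 cells with none of *Acan*, *Sox9* and *Pi16*, 391 *Sox9*-positive cells, and 370, 146 and 256 *Acan*-positive cells with 0, 1 to 9 and 10 or more UMIs of *Col2a1*, the main collagen of cartilage. *Lum* was higher at each step, at 249, 473, 972, 1201 and 1781 CPM, and *Dcn* was too, at 1003, 1424, 1561, 1721 and 2167 CPM. *Fmod* ran 1042, 1224, 1842, 2109 and 2055 CPM and levelled off among *Acan*-positive cells. *Aspn* and *Bgn* were highest in *Sox9*-positive cells and lowest in the cells richest in *Col2a1*, *Aspn* at 1431 and 537 CPM and *Bgn* at 3969 and 2667 CPM. *Ogn* went from 261 CPM in *Sox9*-positive cells to 118 CPM at the last step. *Prelp*, at 110 to 169 CPM, and *Omd*, at 10.9 to 24.5 CPM, showed no single direction. Median depth ran from 12383 UMIs at the first step to 18205.5 at the last.

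**Figure D5:**
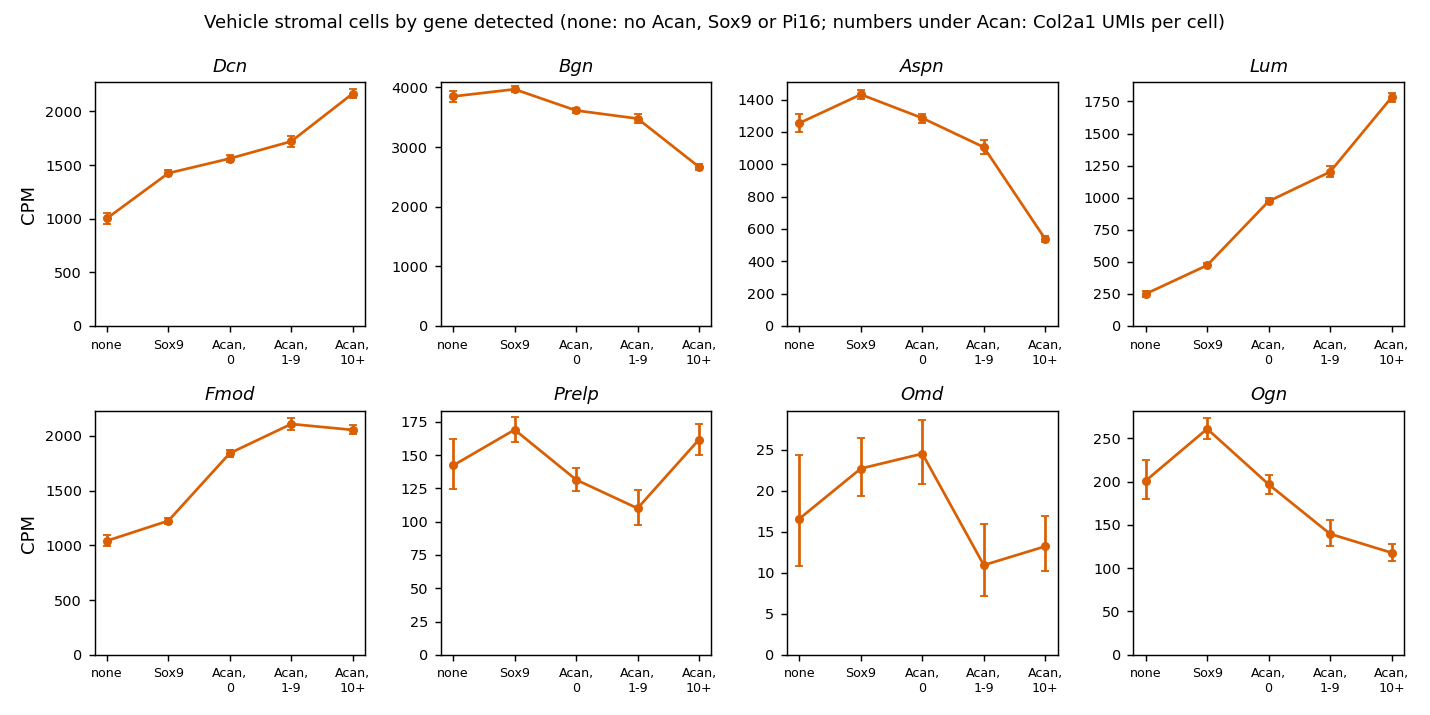
Level in CPM (linear axis from 0) of the 8 genes other than *Kera* in Vehicle stromal cells, from cells without *Acan*, *Sox9* or *Pi16* through *Sox9*-positive cells to *Acan*-positive cells with rising *Col2a1* UMIs, with exact 95% Poisson intervals. The absence of *Pi16* was required at the first step only. *Lum* went from 249 to 1781 CPM while *Aspn* went from 1255 to 537 CPM.

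Outside Vehicle, *Fmod* was held by few cells. In Matrigel-only 89 cells had at least 3 *Fmod* UMIs, in Palo 156 and in Vehicle 1122. The cells were chosen by *Fmod*, so the values of other genes in them are a description. In the 89 Matrigel-only cells the tendon genes *Scx* (a transcription factor of tendon), *Tnmd* (tenomodulin) and *Thbs4* (a thrombospondin) stood at 38.2, 25.1 and 545 CPM, against 1.96, 1.70 and 81.3 CPM in the other stromal cells. Of the chondrocyte markers, *Col11a1* stood at 172 against 10.5 CPM, *Matn3* at 5.20 against 0.159 and *Sox9* at 91.0 against 51.2. *Acan* and *Col2a1* had 1 UMI each in all Matrigel-only stromal cells, too few to compare. *Acta2* stood at 645 against 148 CPM. Of the osteoblast markers, *Sp7* (a transcription factor) stood at 11.3 against 0.689 CPM, from 13 UMIs, and *Runx2* at 46.0 against 30.9 CPM. *Alpl* stood at 0 against 0.583 CPM, and *Ibsp* and *Bglap* at 0 on both sides. *Pi16* stood at 35.5 against 939 CPM. The same cells had more *Bgn*, 6896 against 3024 CPM, and more *Aspn*, 1838 against 712 CPM, and less *Dcn*, 2152 against 4012 CPM. *Ogn* was near level, at 1056 and 1020 CPM. In the 156 Palo cells *Scx* stood at 15.4 against 1.17 CPM, *Tnmd* at 5.90 against 2.79 and *Thbs4* at 273 against 87.7, *Col11a1* at 254 against 30.6 and *Acta2* at 468 against 291, with *Bgn* at 7775 against 3848 CPM. In the 1122 Vehicle cells *Scx* stood at 45.1 against 2.57 CPM, but *Thbs4* and *Tnmd* were the lower, at 6.57 against 34.9 CPM and 2.80 against 6.61 CPM. *Acan* reached 1420 CPM in them, *Col11a1* 1064, *Acta2* 919 and *Ibsp* 864 CPM. The chosen cells were the deeper ones, with medians of 12136 against 8904 UMIs in Matrigel-only, 17972 against 10921 in Vehicle and 13351.5 against 12910 in Palo, and the part of depth in these values was not tested.

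Across single cells thinned to 3000 UMIs, some pairs of genes had a correlation of the same sign in each library. Pearson's r of *Dcn* with *Lum* was 0.40, 0.58 and 0.50 in the 1881 Matrigel-only, 1297 Vehicle and 1131 Palo cells, and r of *Dcn* with *Ogn* was 0.41, 0.23 and 0.44. *Bgn* went with *Aspn*, at 0.23, 0.36 and 0.39, and against *Dcn*, at -0.30, -0.11 and -0.24. *Fmod* went with *Bgn*, at 0.26, 0.15 and 0.33. *Fmod* and *Ogn* ran apart in Vehicle, at -0.26, and not in Matrigel-only or Palo, at 0.01 and 0.13. Cells of a library share its depth and free RNA, and these values carry no test.

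Genes most like each member were sought among 6402 genes over 10 groups of library and class, by Pearson's r of log2(CPM + 5). The groups come from 3 libraries, so r is a description. For *Ogn* they were *Slc4a4*, *Fcgrt* and *Sema3c* (0.99 each), for *Fmod* *Scp2*, *Psmb1* and *Nt5dc2* (0.98 to 0.99) and for *Dcn* *Ablim1*, *Pycard* and *Naglu* (0.98 to 0.99). For *Aspn* they were *Mmp14*, *Myl9* and *Gng11* (0.96 to 0.97), for *Lum* *Sulf2*, *Herc1* and *Plagl1* (0.95 to 0.96) and for *Prelp* *Adamts1*, *Ppp1r2* and *Agpat3* (0.96 to 0.97). For *Bgn* they were *Akr1b8*, *1810022K09Rik* and *Lgalsl* (0.94 to 0.96) and for *Omd* *Slc16a1*, *Ltbp1* and *C1qtnf1* (0.92 to 0.96).

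Outside the members, 9 other leucine-rich repeat proteoglycan genes were followed, each at 98.8 CPM or less in every library. Of these, 4 were tested between Vehicle and Matrigel-only. *Podn* (podocan) was called lower, at 98.8, 31.7 and 50.7 CPM in Matrigel-only, Vehicle and Palo. *Podnl1* was called higher, at 4.84, 31.7 and 10.0 CPM. These are 1 of 4 in each direction, where 4.89% of all genes were called higher and 9.72% lower. *Tsku* and *Ecm2* did not reach 2-fold, and *Epyc*, *Optc*, *Chad*, *Nyx* and *Chadl* lay below the limit in that comparison. For Palo over Matrigel-only 5 were tested. *Podnl1* was called higher (log2 ratio 1.05), where 0.665% of all genes were, and 0 were called lower, where 2.09% were.

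Of 20 genes for the sugar chains, 17 were tested between Vehicle and Matrigel-only, 3 were called higher and 2 lower, where 4.89% and 9.72% of all genes were, so the lower share was close to that of all genes. *Xylt1*, which starts the chains by adding xylose to the core protein, stood at 17.0, 73.6 and 14.0 CPM in Matrigel-only, Vehicle and Palo. *Chsy1*, a chondroitin synthase, stood at 72.2, 158 and 67.2 CPM, and *Chst11*, a chondroitin 4-sulfotransferase, at 21.5, 49.0 and 18.3 CPM. These 3 genes were high in Vehicle alone. *Dsel*, an epimerase-like gene of dermatan sulfate, stood at 122, 45.5 and 104 CPM, and *B4galt4*, a galactosyltransferase of keratan sulfate, at 14.4, 4.48 and 9.29 CPM, both low in Vehicle. The same genes were called in the opposite direction for Palo over Vehicle, 2 higher and 3 lower, where 6.81% and 5.04% of all genes were. None of the 17 was called for Palo over Matrigel-only, where 0.665% of all genes were higher and 2.09% lower. The first 2 of these comparisons share the Vehicle library.

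Called genes among the collagens that these proteins bind and the enzymes that cut them are read against the same 4.89% higher and 9.72% lower of all genes. Of 10 fibril genes outside the stromal rule, *Col11a1* (19.8, 947 and 61.8 CPM) and *Col12a1* (545, 1680 and 959 CPM) were called higher in Vehicle than in Matrigel-only, 2 of 10. *Col14a1* (1233, 283 and 1138 CPM) and *Tnxb* (767, 66.6 and 422 CPM), both of fibril surfaces in soft connective tissue, were called lower, again 2 of 10. *Bmp1*, the protease that trims procollagen and some of these core proteins, stood at 762, 823 and 784 CPM. Of 10 enzyme genes 9 were tested, with 1 called higher and 3 lower. The higher one was *Mmp13* (0.150, 25.6 and 1.20 CPM), a collagenase of cartilage, and the lower ones were *Adamts1*, *Adamts5* and *Mmp3*, *Adamts5* at 523, 75.3 and 452 CPM. Of 9 other proteoglycan genes, *Acan* (1260 CPM in Vehicle) and *Gpc1* (24.3, 97.1 and 38.3 CPM) were called higher, 2 of 9, and none lower, with *Vcan* at 519, 636 and 409 CPM. For Palo over Matrigel-only, 0.665% of all genes were called higher and 2.09% lower. There *Col11a1* was called higher (log2 ratio 1.64), 1 of 10 fibril genes, and *Mmp3* lower (-1.18), 1 of 8 enzyme genes tested. None of the 8 other proteoglycan genes tested was called.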

How the data were processed

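Reads of the 3 droplet libraries were aligned with Cell Ranger 3.0.2 against mm10 per the submitters' processing notes, and the authors deposited UMI counts per barcode and gene without normalization. The authors' own cell clusters were not used here. Cells were filtered to 200 to 6000 genes and at most 5% mitochondrial UMIs, the limits of the study, and kept as stromal at 1% or more collagen UMIs. Counts were summed over cells and scaled to CPM. Doublets were not removed with a caller, and stromal cells with leukocyte genes were left out as an alternative. With 1 library per group no test was run, and counts of genes past 2-fold were set beside the same count over all genes with a mean of at least 5 CPM. Shares of cells were computed at 3000 UMIs per cell by the hypergeometric formula, leaving out 199, 68 and 52 shallower Matrigel-only, Vehicle and Palo cells. The code for calls and intervals was checked on simulated Poisson totals with planted changes. Those totals had no spread between cells or libraries, so the check does not show how the intervals hold for these data. Total depth was 44252421, 46317250 and 46901673 UMIs on 9249, 6065 and 7905 barcodes.

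The members and gene lists were chosen with earlier results of these data known, and the steps by *Col2a1*, the cells chosen by *Fmod* and the motifs were chosen after values were seen. All 9 members, all genes of the fixed lists that were called, and the 3 genes most like each member (of those with a mean of at least 20 CPM) could be named. Tools were Python 3.11.15 (pandas 2.3.3, scipy 1.17.1, numpy 2.4.6, figures in matplotlib 3.10.9), and R 4.3.3 for the TMM factors of edgeR 4.0.16.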

Additional observations from a re-analysis of the deposited data

Results flagged for a closer look

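For 7 of the ratios of the 8 genes tested, over all group comparisons, *Sox9*-positive and *Pi16*-positive cells went opposite ways with both counting intervals away from 0. How often all genes meet this rule was not computed, and the intervals are narrow, so the count is not a result about this family. The difference was not tested, since each group had 1 library, and the Vehicle *Pi16*-positive class held 80 cells. For Vehicle over Matrigel-only, the log2 ratio of *Bgn* was -0.32 in *Sox9*-positive and 0.59 in *Pi16*-positive cells, a difference of -0.91. That of *Prelp* was -1.13 and 0.49, a difference of -1.62. For Palo over Vehicle, the ratio of *Dcn* was 0.85 and -0.05, a difference of 0.90, and its *Pi16*-positive interval (-0.10 to -0.00) came close to 0. That of *Aspn* was -0.66 and 0.33, a difference of -0.99, and that of *Prelp* was 0.69 and -0.45, a difference of 1.14. For Palo over Matrigel-only, the ratio of *Lum* was -0.24 and 0.12, a difference of -0.36, and that of *Omd* was -0.56 and 0.49, a difference of -1.05, from 64 and 127 UMIs in Palo. *Prelp* was the gene that met this in both comparisons with Vehicle.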

How the results depend on the processing

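Counting error alone could be given, since each group had 1 library. Of 138 recomputed counts of members past 2-fold, 128 equalled the count in the report or lay within 1.5 times of it, and 10 did not. Of 978 recomputed log2 ratios of members, 688 stayed inside the counting interval of the report's setting and 290 moved outside it. With the 3 classes without *Acan* given the same weight, 1 gene in place of 3 was lower for Vehicle over Matrigel-only and 0 in place of 1 was higher for Palo over Vehicle. Over all genes, that weighting left 219 higher and 391 lower of 10283 for Vehicle over Matrigel-only (2.13% and 3.8%). The report's setting gave 506 and 1006 of 10351 (4.89% and 9.72%). For Palo over Vehicle it left 259 and 296 of 10182 (2.54% and 2.91%), against 697 and 516 of 10233 (6.81% and 5.04%). A mean of at least 1 CPM let more genes in, with 827 and 1556 of 12751 (6.49% and 12.2%) and 1135 and 866 of 12664 (8.96% and 6.84%). For Palo over Matrigel-only the counts were 68 and 214 of 10228 (0.665% and 2.09%) in the report's setting. They were 44 and 143 of 10228 (0.43% and 1.4%) with equal classes and 183 and 470 of 12638 (1.45% and 3.72%) at 1 CPM. With a stromal limit of 5% collagen UMIs, 2 genes in place of 1, *Prelp* and *Ogn*, were higher for Palo over Vehicle, where 6.23% of all genes were. With each cell given the same weight, 1 gene in place of 0, *Fmod*, was higher for Palo over Matrigel-only (log2 ratio 1.29), where 0.769% of all genes were. With each cell given the same weight, with the splitting gene at 2 UMIs or more, and with cells thinned to 3000 UMIs, 1 gene in place of 0 was lower in *Pi16*-positive cells of all 3 libraries (*Fmod*) and 1 in place of 0 in *Acan*-positive Vehicle cells (*Ogn*). The share of all genes called in the splits was not recomputed under these settings. The cause was not tested. No called ratio changed sign. The log2 ratio of *Fmod* ran from 4.01 to 5.42 for Vehicle over Matrigel-only and from -4.29 to -3.35 for Palo over Vehicle, and that of *Ogn* from -2.25 to -1.12 and from 0.60 to 1.37. *Lum* changed direction for Palo over Vehicle in 2 of 11 alternatives, at up to 0.55. *Kera* was below the limit throughout the group comparisons. No paired analysis was possible because each group had 1 library, and leaving out a replicate was not possible for the same reason.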
